A study of Rattus norvegicus with 6 samples.

Results

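The genes described here encode the extracellular matrices that lie on the vestibular sensory epithelia, and the proteins needed to build them. They were Otog, Otogl, Otoa, Tecta, Tectb, Oc90, Otop1, Ceacam16 and Otol1, named by symbol, and each symbol matched a single row, so that 9 of the 32883 genes in the table were followed. RNA was sequenced from the vestibular epithelium of Long-Evans rats. Each library came from a single animal, with 2 utricles and 6 cristae pooled, so the macular and the ampullary matrices could not be told apart. The Control group (n = 3) received the vehicle, PBS. The STREP group (n = 3) received subcutaneous streptomycin, an aminoglycoside antibiotic toxic to hair cells (HCs), at 500 mg/kg daily over 6 weeks beginning at postnatal day 21. Each group held 2 males, replicates 1 and 2, and 1 female, replicate 3, and all animals carried the same strain and batch label. The titles of STREP replicates 1 and 2, the males, share a number and differ in the letters RF and LF, which the labels do not explain. That these were 2 animals rests on the methods of the study, which count 3 treated animals, and not on the titles. Whether they shared a cage or litter is not known.

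In the utricle, the HC bundles reach into a gelatinous otoconial membrane loaded with otoconia, small crystals of calcium carbonate, whose inertia deflects the bundles during linear acceleration. In the cristae, the bundles reach into a cupula, a gelatinous cap without crystals that is moved by fluid during rotation. The glycoproteins of these matrices are made largely by supporting cells and by the non-sensory cells around the sensory patch, not by HCs. In bulk tissue, fewer cells of a type and less RNA per cell cannot be told apart, and the cell that made each transcript was not measured. Otop1 is the exception to the secreted products in this group, as it encodes a proton channel of the membrane that is required for otoconia to form.

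Library totals ran from 48568191 to 59906048 counts in Control and from 29333584 to 33744909 in STREP animals, so all STREP libraries were shallower. All 12 genes of an HC marker list and all 11 of a supporting cell list were tested, which does not show that each was well expressed. Fabp7, a supporting cell marker, held 108, 12 and 7 counts in Control and 4, 3 and 0 in STREP replicates 1, 2 and 3. Normalised counts are counts divided by a size factor per library. STREP replicate 3 had the smallest size factor, 0.668, although its total was the highest of the STREP libraries, and its 10 most abundant genes took 21.8% of all counts against 13.3 to 19.0% elsewhere. Its normalised counts therefore stand higher, relative to the other libraries, than its CPM, counts scaled to the library total. Levels on both scales are given for Otog, Otogl, Otoa, Tecta, Tectb and Oc90.

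Of the 9 genes, 0 were called changed by DESeq2, where a call needed an adjusted p-value under 0.05 and a fold change over 1.5. By the same rule, 3.24% of the 16250 genes tested were called, 1.37% lower and 1.87% higher. The matrix genes nevertheless lay mostly above 0. The log2 fold change (STREP over Control) was positive for 7 genes and negative for 2, and its median was 0.31, beside 0.0069 over all genes tested. At an unadjusted p-value under 0.05, 5 genes were higher (Otog, Otoa, Tecta, Tectb and Oc90) and 0 were lower, whereas 6.65% of all tested genes were higher by that measure. With the edgeR quasi-likelihood test, 0 were called, where 1.77% of all genes were, and 2, Tectb and Oc90, were higher at an unadjusted p-value under 0.05, where 6.15% of all genes were. With sex as a covariate 0 matrix genes were called, where 3.44% of all genes were. The normalised counts of the groups did not overlap for 3 matrix genes, Otog, Otogl and Oc90, all higher in STREP animals. Over all genes this was so for 17.8% in either direction and for 9.12% with STREP higher. The p-values set the difference between groups against the variation between single animals, 3 in each group. DESeq2 and edgeR draw in part on other genes to estimate that variation. The 9 genes together took between 1.19 and 1.26% of all counts in Control libraries and between 1.51 and 1.84% in STREP libraries, most of it from Otog.

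**Figure D1:**
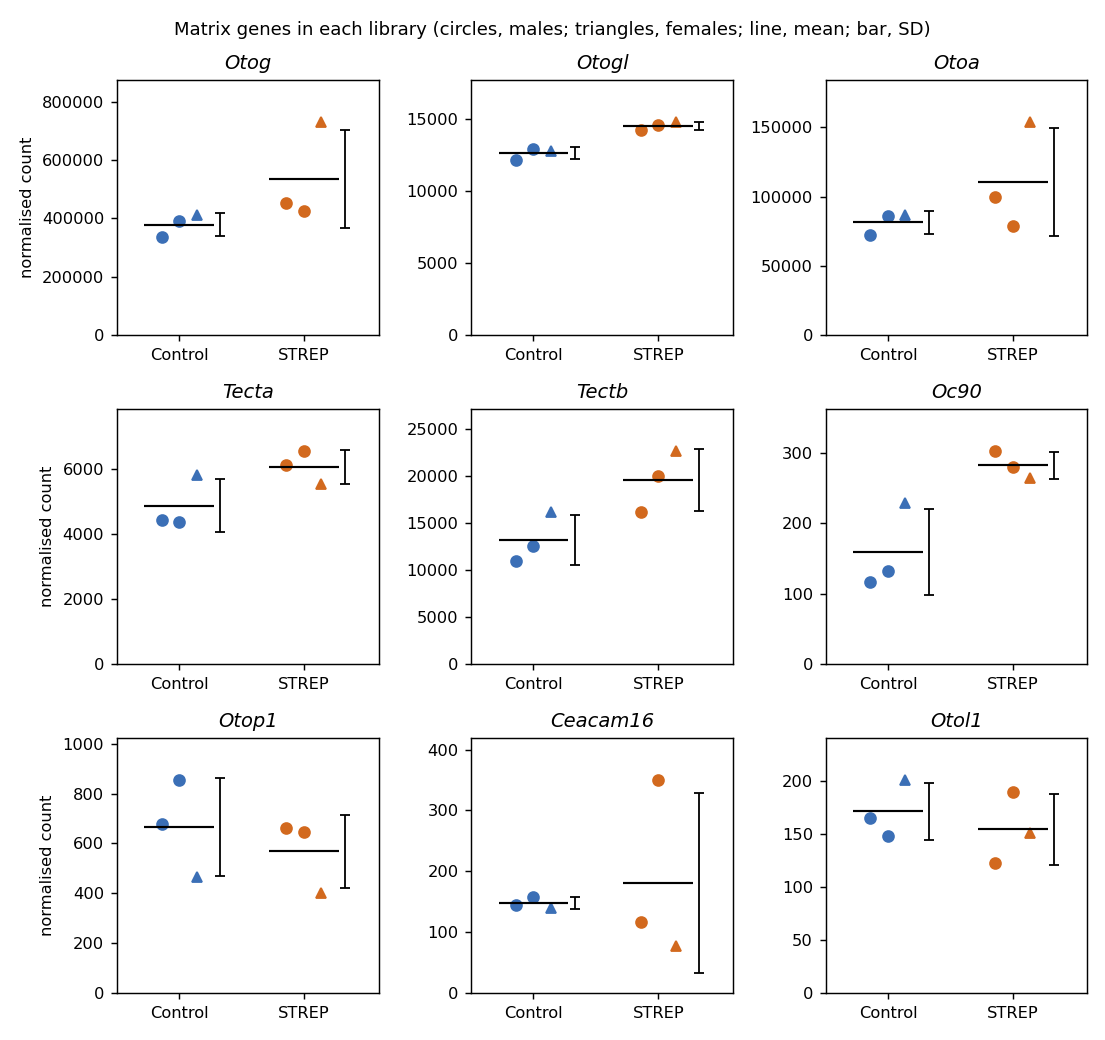
Normalised counts of the 9 matrix genes (y axis, from 0) in the 3 Control and 3 STREP libraries (x axis). Points are animals, circles males and triangles females, lines are means and bars are SD (n = 3). Otog, Otogl and Oc90 show no overlap between groups, and STREP replicate 3, the female, stands highest for Otog, Otogl, Otoa and Tectb and farthest from the others for Otog and Otoa.

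The sequences before 3 of these genes are shown because Otog and Otoa varied together most closely across libraries and Tectb had the smallest p-value of the group. RefSeq promoters on the rat build GRCr8 were matched by symbol for 7 of the 9 genes. The table of counts was made on an earlier build, so these coordinates are not those of the counts. Each line gives the 250 bases before the annotated start of the gene on the plus strand. Capitals mark the letters ACAAAG or ACAATG, on either strand, which are forms of the motif bound by SOX factors such as the supporting cell factors SOX2, SOX9 and SOX10. The Otog sequence lies at chr1:105882497-105882746, that of Otoa at chr1:185074021-185074270 and that of Tectb at chr1:264226713-264226962.
Otog: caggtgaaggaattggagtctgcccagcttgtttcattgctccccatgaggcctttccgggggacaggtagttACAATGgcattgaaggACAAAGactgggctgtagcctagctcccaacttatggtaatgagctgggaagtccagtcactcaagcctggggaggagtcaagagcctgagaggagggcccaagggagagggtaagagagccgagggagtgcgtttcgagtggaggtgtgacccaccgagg
Otoa: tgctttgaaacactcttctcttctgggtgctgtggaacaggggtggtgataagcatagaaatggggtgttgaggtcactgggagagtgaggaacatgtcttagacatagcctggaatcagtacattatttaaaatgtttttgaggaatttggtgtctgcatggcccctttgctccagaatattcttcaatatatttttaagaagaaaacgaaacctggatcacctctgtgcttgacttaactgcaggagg
Tectb: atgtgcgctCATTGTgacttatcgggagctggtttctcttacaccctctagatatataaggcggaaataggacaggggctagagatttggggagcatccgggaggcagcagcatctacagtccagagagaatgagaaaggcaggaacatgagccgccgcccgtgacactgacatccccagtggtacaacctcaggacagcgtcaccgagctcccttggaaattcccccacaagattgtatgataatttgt
Otog held both forms, starting 161 and 177 bases before the gene, and Tectb held 1, on the opposite strand, 241 bases before it. No match was found in the Otoa window. Of the 7 matrix genes with a promoter, 4 held at least 1 of the forms (Otog, Tectb, Ceacam16 and Otol1), and 25.3% of all 33469 promoters did. The letters TATAAA, 1 form of the TATA box, were found on either strand in 0 of the 7 windows and in 12.9% of all promoters. Other forms of the TATA box were not searched, so their absence is not shown. These matches describe letters and not binding.

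Otogelin, encoded by Otog, is a large mucin-like glycoprotein of the cupula and the otoconial membrane that helps to hold both onto the epithelium. The Control animals, in the order of their replicate numbers, held 334983, 389779 and 410468 normalised counts of Otog, and the STREP animals, in the same order, which is kept from here on, held 452183, 425664 and 729507. The STREP animals were all above the Control animals, by a narrow margin in the males and a wide one in the female. The mean went from 378410 ± 39006 to 535784 ± 168292 (SD, n = 3), a 1.42-fold difference with a 95% interval of 1.08 to 1.86. This did not pass the test (log2 fold change 0.50 ± 0.20 SE, DESeq2 adjusted p = 0.194). Without STREP replicate 3 the log2 fold change was 0.22. With sex as a covariate it was 0.46 and the adjusted p-value passed (DESeq2 adjusted p = 0.0477), although the fold change stayed under 1.5. Among all genes in that fit, 2.42% were higher at an adjusted p-value under 0.05. Among males alone the log2 fold change was 0.27 (DESeq2 adjusted p = 0.515). In the single pair of females, Otog was 0.83 higher in log2 terms.

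As a share of all counts, which uses library totals in place of size factors, Otog took 0.911, 0.944 and 0.974% in Control libraries and 1.16, 1.24 and 1.45% in STREP libraries. On this scale the groups were also apart and STREP replicate 3 stood less far from the other STREP animals. With library totals as size factors, the log2 fold change was 0.44 (DESeq2 adjusted p = 0.245). Across all genes tested, 5.56% were higher in every STREP library than in any Control library on this scale.

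Otogl encodes otogelin-like, the paralogue of otogelin, found in the same matrices. Its normalised counts were 12169, 12938 and 12791 in Control and 14222, 14570 and 14763 in STREP animals. These were the tightest values of the group, with no overlap between the groups. The means were 12633 ± 408 and 14518 ± 274 (SD, n = 3), a 1.15-fold difference with a 95% interval of 0.991 to 1.33 (DESeq2 adjusted p = 0.463). A change of 1.5-fold in either direction lay outside this interval. In CPM, however, STREP replicate 3 had the lowest value of all, 292, against 304 to 331 in Control and 364 and 424 in the other STREP libraries, so the separation depended on the scaling.

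Otoancorin, encoded by Otoa, attaches the overlying gels to the apical surface of non-sensory cells. Normalised counts of Otoa were 72097, 86209 and 86506 in Control and 99443, 78718 and 153674 in STREP animals. STREP replicate 2 lay within the Control range and STREP replicate 3 far above it. The log2 fold change was 0.44 ± 0.22 (SE, n = 3, DESeq2 adjusted p = 0.381), a 1.36-fold difference with a 95% interval of 1.01 to 1.82. The value depended on which STREP animal was left out. Without STREP replicate 3 the log2 fold change was 0.13, and without STREP replicate 2 it was 0.63 and Otoa was called higher (DESeq2 adjusted p = 0.0489), where 1.72% of all genes were called higher. In CPM, the Control libraries held 1961, 2088 and 2053 and the STREP libraries 2546, 2292 and 3044, with no overlap. Otoa was 0.83 higher in log2 terms in the single pair of females and 0.17 higher in the males, and this difference between the sexes did not pass the test (DESeq2 adjusted p = 0.771 for the interaction).

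**Figure D2:**
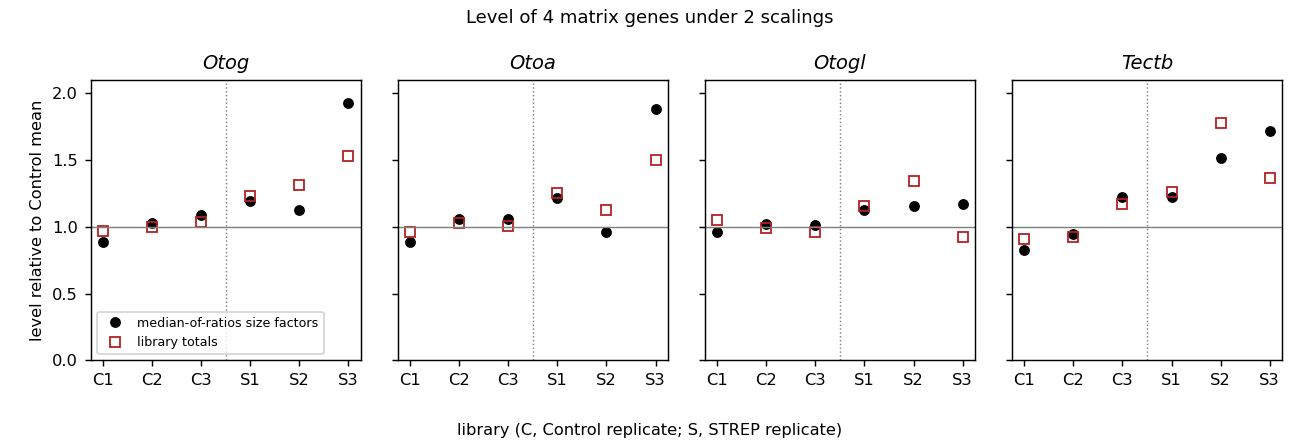
Level of Otog, Otoa, Otogl and Tectb in each library relative to the Control mean (y axis, linear ratio), with C1 to C3 for Control and S1 to S3 for STREP replicates on the x axis. Filled circles use median-of-ratios size factors and open squares library totals. STREP replicate 3 is higher by size factors than by library totals for all 4 genes, and STREP replicate 2 is lower.

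The tectorins carry zona pellucida domains through which they assemble into filaments. Tecta encodes alpha-tectorin and Tectb beta-tectorin, and both occur in otoconial membranes as well as in the tectorial membrane of the cochlea. Tectb came nearest to a call. Its normalised counts were 10924, 12484 and 16093 in Control and 16089, 19927 and 22591 in STREP animals. Only STREP replicate 1 overlapped the Control range, where it fell just below the Control female. The mean went from 13167 ± 2652 to 19535 ± 3269 (SD, n = 3), a 1.48-fold difference with a 95% interval of 1.16 to 1.90 (log2 fold change 0.57 ± 0.18 SE, DESeq2 adjusted p = 0.0506). In CPM, Tectb was 297, 302 and 382 in Control and 412, 580 and 448 in STREP libraries, with no overlap.

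The call on Tectb turned on the fit. The edgeR quasi-likelihood test gave an adjusted p of 0.252. With sex as a covariate the adjusted p-value was much smaller, with the fold change still under 1.5 (log2 fold change 0.58, DESeq2 adjusted p = 0.000875). Among males alone, 2 per group, Tectb was called higher (0.62, DESeq2 adjusted p = 0.00932), where 1.52% of the 15217 genes tested were called higher. It was also called without Control replicate 3 (0.74, DESeq2 adjusted p = 0.00456), where 1.81% of all genes were called higher, and without STREP replicate 1 (0.69, DESeq2 adjusted p = 0.0225), where 1.38% were. Tectb was not called without Control replicate 1 (0.45, DESeq2 adjusted p = 0.318) or Control replicate 2 (0.53, 0.273). The same held without STREP replicate 2 (0.55, DESeq2 adjusted p = 0.157) or STREP replicate 3 (0.45, 0.204). With library totals as size factors the DESeq2 adjusted p was 0.178.

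Tecta had normalised counts of 4431, 4352 and 5821 in Control and 6111, 6539 and 5515 in STREP animals. In males the STREP values were higher, and in the pair of females the STREP value was slightly lower. In CPM, Tecta was 121, 105 and 138 in Control and 156, 190 and 109 in STREP libraries. On that scale STREP replicate 3 lay below Control replicates 1 and 3, so its place depended on the scaling. The log2 fold change was 0.31 ± 0.16 (SE, n = 3, DESeq2 adjusted p = 0.403), a 1.24-fold difference with a 95% interval of 1.00 to 1.55. Among males alone it was 0.52 with DESeq2 adjusted p = 0.0245, under the fold limit, where 1.56% of all genes were higher at an adjusted p-value under 0.05. The fold change in females less that in males was -0.60 ± 0.27 in log2 terms (SE, DESeq2 adjusted p = 0.803), so a difference between the sexes was not shown, and each sex-specific value in females rests on 1 animal per group.

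Oc90 encodes otoconin 90, the main protein of otoconia in mammals, which is related to secreted phospholipase A2 and acts as a scaffold for the crystals. It had the largest log2 fold change of the 9 genes, at a low count. Its normalised counts were 116, 133 and 229 in Control and 302, 280 and 265 in STREP animals, from 156 to 266 counts per library. All STREP values were above all Control values, and the Control female was nearest to them. The mean went from 159 ± 60.9 to 282 ± 18.9 (SD, n = 3), a 1.78-fold difference with a wide 95% interval of 1.14 to 2.77 (log2 fold change 0.83 ± 0.33 SE, DESeq2 adjusted p = 0.176). Without Control replicate 3 it was called higher (1.19, DESeq2 adjusted p = 0.00332), as 1.81% of all genes were. Without Control replicate 1 the log2 fold change was 0.64 (DESeq2 adjusted p = 0.503). With any other animal left out, the DESeq2 adjusted p-value was 0.289 to 0.496. In CPM, STREP replicate 3, at 5.25, was below the Control female, at 5.43, so the groups overlapped on that scale.

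Otol1 encodes otolin, a collagen-like protein of otoconia and otoconial membranes that binds otoconin 90. Its normalised counts were 166, 148 and 201 in Control and 122, 190 and 151 in STREP animals. The groups overlapped, with a log2 fold change of -0.15 ± 0.32 (SE, n = 3, DESeq2 adjusted p = 0.955) and a 95% interval of the fold change of 0.583 to 1.40. Each library held 92 to 270 counts of it.

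Otop1 encodes otopetrin 1, the proton channel. Its normalised counts were 678, 854 and 464 in Control and 663, 645 and 399 in STREP animals. In both groups the female was the lowest animal, and the groups overlapped. The log2 fold change was -0.22 ± 0.28 (SE, n = 3, DESeq2 adjusted p = 0.880), and the 95% interval of the fold change ran from 0.584 to 1.25. Without Control replicate 2 the log2 fold change was -0.0056.

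Ceacam16 encodes a secreted cell adhesion molecule best known from the tectorial membrane of the cochlea, where it interacts with alpha-tectorin. Its normalised counts were 145, 158 and 140 in Control and 117, 350 and 76.3 in STREP animals, from 51 to 324 counts per library. The Control animals were close to each other and the STREP animals were not, since STREP replicate 2 alone was above the Control range and both other STREP animals were below it. The log2 fold change, 0.30 ± 0.50 (SE, n = 3, DESeq2 adjusted p = 0.926), turned to -0.61 without STREP replicate 2 and was 0.67 without STREP replicate 3.

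**Figure D3:**
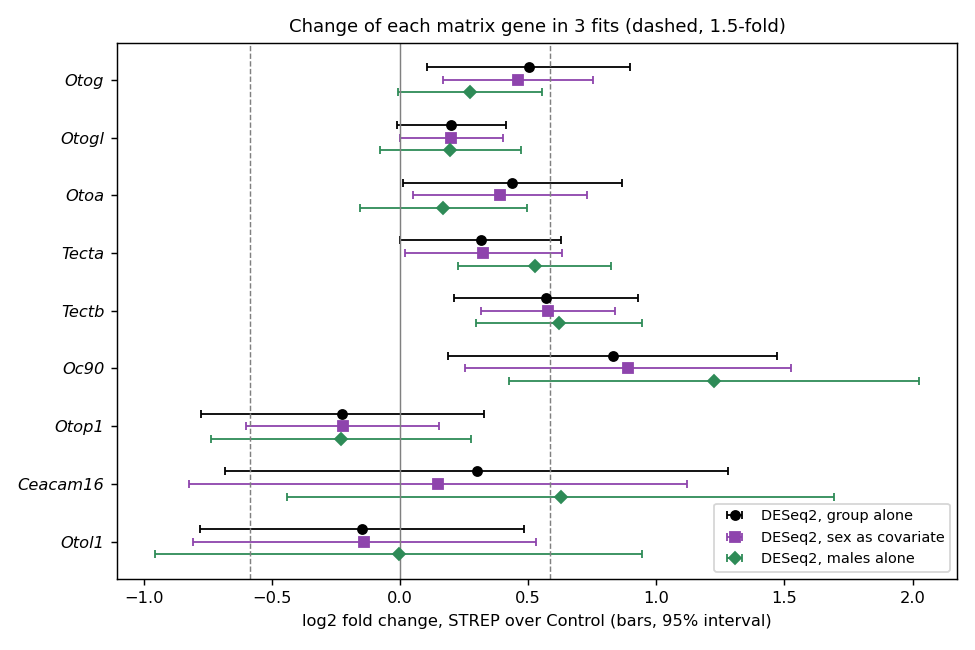
Log2 fold change, STREP over Control (x axis), of each matrix gene (rows) with 95% intervals in 3 DESeq2 fits. Black circles use group alone, purple squares add sex as a covariate and green diamonds use the 2 males per group. Dashed lines mark a 1.5-fold change. In the fit on group alone the intervals of Otog, Otoa, Tecta, Tectb and Oc90 lie above 0, those of Otoa and Tecta only just, with lower ends at 0.013 and 0.0019.

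Ratios between partner genes within a library do not depend on scaling, and a ratio of counts is compared between groups only, because the genes differ in length. These 5 ratios were chosen with the values known. The log2 ratio of Otog to Otoa was nearly constant, between 2.18 and 2.25 in all libraries but STREP replicate 2, at 2.43. Its mean differed by 0.076 between groups (exact two-sided permutation p = 0.4, adjusted p = 0.5 over the ratios). The ratio of Otogl to Otog ran from -5.00 to -4.78 in Control libraries and was -4.99, -4.87 and -5.63 in STREP animals, an overlap (exact permutation p = 0.5). The ratio of Tectb to Tecta also overlapped (exact permutation p = 0.3). The ratio of Oc90 to Otol1 did not. It was -0.51, -0.16 and 0.18 in Control and 1.303, 0.557 and 0.809 in STREP animals, a difference of 1.05 (exact two-sided permutation p = 0.1, the smallest that 3 against 3 animals allow, adjusted p = 0.25).

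The last ratio set Otoa against Strc. Strc encodes stereocilin, the paralogue of otoancorin, which HCs make for the links of their stereocilia. Normalised counts of Strc were 782, 1135 and 849 in Control and 379, 566 and 139 in STREP animals, and Strc was called lower (log2 fold change -1.35 ± 0.38 SE, DESeq2 adjusted p = 0.0151). The animal with the highest Otoa, STREP replicate 3, had the lowest Strc. Control animals had a log2 ratio of Otoa to Strc of 6.48 ± 0.22 and STREP animals one of 8.42 ± 1.53 (SD, n = 3), with no overlap (exact two-sided permutation p = 0.1, adjusted p = 0.25). The difference of 1.94 ranged from 1.10, without STREP replicate 3, to 2.59, without STREP replicate 2. The call on Strc itself was lost with edgeR, with library totals as size factors, and without any 1 of Control replicates 1, 2 and 3 or STREP replicate 1.

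A list of other genes known from otoconia formation was compared with the matrix genes. It held 12 genes found in the table, of which 11 were tested. Of these, 2 were called lower and 0 higher, where 1.37% of all genes tested were called lower and 1.87% higher. The median log2 fold change was -0.23, beside 0.0069 over all genes. Car2 encodes carbonic anhydrase 2, an enzyme that supplies bicarbonate. It fell from 5302 ± 797 to 2773 ± 811 normalised counts (SD, n = 3), and all 3 STREP values, 3708, 2254 and 2356, were below the lowest Control value, 4821 (log2 fold change -0.94 ± 0.21 SE, DESeq2 adjusted p = 0.000601). Atp2b2 encodes the calcium pump of the HC stereocilia, which exports calcium to the endolymph. It fell from 3965 ± 264 to 2076 ± 296 normalised counts (-0.93 ± 0.15 SE, DESeq2 adjusted p = 3.21e-07). Atp2b2 belongs to a gene list that the study chose with these libraries among others, so its direction is not independent evidence.

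The other genes of that list did not pass the test. Among them, the NADPH oxidase subunits Nox3 and Cyba had log2 fold changes of -0.088 and -0.23, the anion exchanger gene Slc26a4 had -0.12, and Sparc and Sparcl1, which encode calcium-binding matrix proteins, had 0.059 and -0.072. Spp1, the gene of osteopontin, an acidic protein found in otoconia, had -0.43 (DESeq2 adjusted p = 0.439). The study counts Spp1 among HC-specific genes, so its value need not concern otoconia. Dmp1, the gene of a dentin matrix protein, had -0.33. Noxo1 had at most 28.1 normalised counts in any library and Otop2 at most 18.4, too few to show a difference, and Otop3 had 0 counts in all 6 libraries.

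Collagens and other extracellular proteins of the inner ear made up a list of 10 genes, all of them tested. Strc was the 1 gene called lower and 0 were called higher, where 1.37% of all genes tested were called lower and 1.87% higher. The median log2 fold change was 0.077. The fibrillar and associated collagen genes Col2a1, Col9a1, Col9a2, Col9a3, Col11a1 and Col11a2 had log2 fold changes from -0.12 to 0.25, each with an adjusted p-value of at least 0.511 (DESeq2). Emilin2 and Otos, which encode secreted proteins of the inner ear, had -0.28 and -0.14. Coch, which encodes cochlin, a protein of the connective tissue under the epithelium, had 713112 to 1144270 normalised counts in Control and 578779 to 1472750 in STREP libraries, and its highest value was in STREP replicate 3, as for Otog and Otoa.

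**Figure D4:**
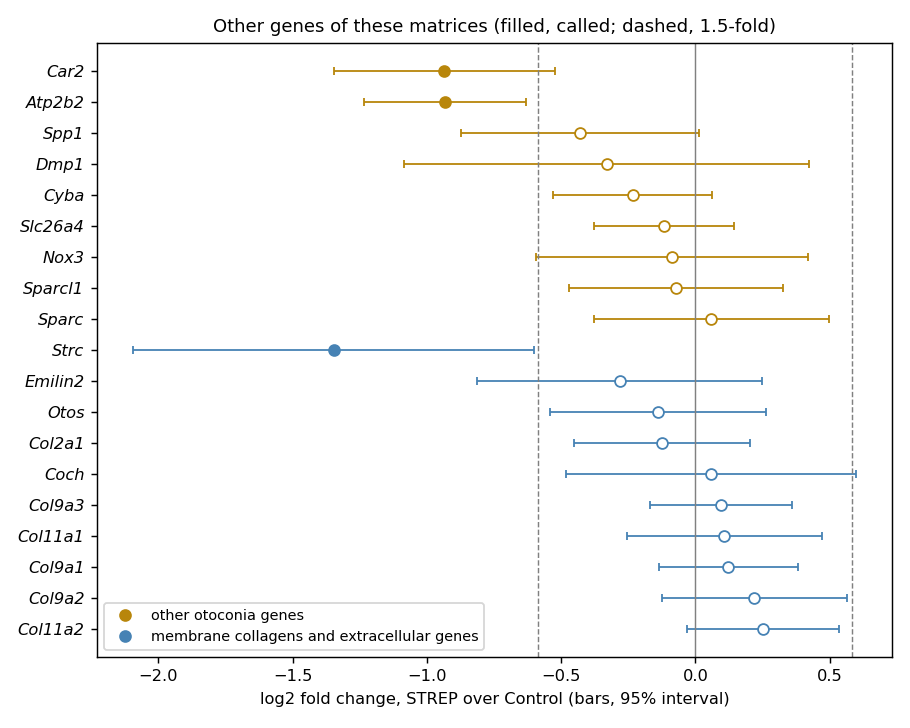
Log2 fold change, STREP over Control (x axis), with 95% intervals for the tested genes of the otoconia list (gold) and of the list of collagens and other extracellular proteins (blue) whose normalised counts averaged 100 or more. Filled points were called and dashed lines mark a 1.5-fold change. Car2, Atp2b2 and Strc are the filled points, all to the left.

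Markers of the cells that share this tissue were read in the same fit, where 1.37% of all genes tested were called lower and 1.87% higher. The 11 supporting cell markers had a median log2 fold change of 0.25 with 1 called higher, Sox10 (0.95, DESeq2 adjusted p = 0.000104), and 0 called lower. Their summed level was 143387 to 189628 normalised counts in Control and 131954 to 257732 in STREP libraries, with the highest sum in STREP replicate 3. By mean log2 level the groups also overlapped, at 10.73 to 11.05 in Control and 10.77 to 11.03 in STREP libraries. On that measure Control replicate 1 was highest, but the measure weights a gene with few counts as much as an abundant one. Fabp7 of this list had 66.3 normalised counts in Control replicate 1 and at most 10.2 in any other library. The mean log2 level without Fabp7 was not taken. Of the 12 HC markers, 2 were called lower (Ptprq and Strc) and 1 higher (Gfi1), and the summed level was 109676 to 118992 in Control and 88496 to 106353 in STREP libraries. Ptprq, Myo7a and Lhfpl5 of this list are among genes that the study chose as lower with these libraries in use, so their part in the list is not independent evidence. The 10 markers of dark and transitional cells, the secretory cells at the edge of the sensory patches, had a median of -0.36, 0 were called, and their summed level was 52140 to 58323 in Control and 37558 to 45259 in STREP libraries. Their mean log2 level overlapped, however, at 10.03 to 10.70 in Control and 9.77 to 10.37 in STREP libraries. Further lists covered melanocytes (5 genes tested), fibroblasts (8), Schwann cells (6), neurons (6), macrophages (7), endothelium (4), bone and cartilage (5), and blood (2). These lists held 1 gene called lower, Prx (-0.68), and 1 called higher, Tubb3 (1.28). Of their median log2 fold changes, those farthest from 0 were -0.96 for melanocytes (4 of 5 genes negative), -0.51 for Schwann cells (6 of 6 negative) and -0.40 for blood (2 of 2 negative), and that of macrophages was 0.28 (6 of 7 positive). The part of these marker differences in the values of the matrix genes was not tested. Of the bone and cartilage markers, Bglap had at most 14.1 normalised counts in any library and Ibsp at most 31.4. Acan, Comp and Dmp1 of the same list stood higher, with Control means of 907, 182 and 963.

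Across the 6 libraries, the matrix genes did not vary as 1 block. On the scale of log2(normalised count + 1), Pearson r was 0.97 for Otog and Otoa, 0.94 for Tecta and Oc90, and 0.90 for Otogl and Tectb, but 0.21 for Otoa and Tecta, -0.070 for Oc90 and Otol1 and -0.71 for Otog and Otop1. All points share their libraries, their scaling and the treatment, so these are descriptions. Among 12122 other genes whose normalised counts averaged 100 or more, the gene most like Otog was Tmod1 (r = 0.995), that most like Otoa was Lsm5 (0.997), and that most like Tectb was Wnt6 (0.996). Those most like Otogl, Tecta, Oc90, Otop1, Ceacam16 and Otol1 were Bicd2, Clptm1l, Fiz1, Gria3, Dlg4 and Smg9, with r from 0.985 to 0.997. By DESeq2, 0 of these 9 genes were called, each with an adjusted p-value of at least 0.381. Each r is the largest of 12122 over 6 libraries, so high values follow from the search and do not show shared regulation.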

How the data were processed

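Vestibular epithelia were sequenced from poly(A)-primed cDNA prepared by a SMARTseq2 protocol, which does not mark strand, so antisense reads cannot be told apart. The authors aligned reads to the rat genome Rnor6.0 with STAR 2.5.3a and quantified genes with RSEM (1.3.0 in the submitters' processing notes), and they deposited expected counts per gene, unscaled. All deposited values were whole numbers, so rounding changed nothing. Of 32883 genes, 18705 had a count. A total of 3 counts, taken as the floor, was 0.0501 to 0.102 CPM and covers counting error only.

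The test on the counts used DESeq2 1.42.0 in R 4.3.3 (median-of-ratios size factors, group alone, Wald test, independent filtering, Benjamini-Hochberg adjustment over all genes). A gene was called at an adjusted p-value under 0.05 and a fold change over 1.5. Intervals of 95% are Wald intervals. Groups came from the labels, and replicates were numbered in order of deposition. Alternatives were edgeR 4.0.16 with and without a filter, other size factors, a minimum of 10 counts in 3 libraries, a sex covariate, males alone, no independent filtering, thinned libraries and omission of each animal. The fits were checked on simulated counts. The genes and lists were chosen with earlier results of these data known. All 9 genes were named, with the called genes of each list and the gene most correlated with each, and genes of the lists that were not called are named for description. Partner ratios, promoters and the calls of the other lists under each alternative were added after the data were seen.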

Additional observations from a re-analysis of the deposited data

How the results depend on the processing

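No matrix gene was called lower under any alternative or omission run. The count called higher was 0 except among males alone, where it was 1 (Tectb), and it ran from 0 to 2 with each animal left out (2 without Control replicate 3, Tectb and Oc90; 1 without STREP replicate 1, Tectb, and 1 without STREP replicate 2, Otoa). In those fits 1.81, 1.38 and 1.72% of all genes tested were called higher. The median log2 fold change of the 9 genes stayed positive, with 0.37 under library totals as size factors, 0.27 among males alone and 0.22 to 0.51 with each animal left out. Of the single-gene values under other settings, 80 kept direction and call and 1 gained a call. Of those with an animal left out, 49 kept both, 4 gained a call and 1, Ceacam16 without STREP replicate 2 (-0.61, and up to 0.67 without STREP replicate 3), changed sign. Over all genes, 126 were called lower and 138 higher with edgeR and a filter, 135 and 160 with edgeR and no filter, and 139 and 170 with library totals as size factors, against 223 and 304. The cause was not tested. Without any fold limit, 0 matrix genes passed on group alone. Tectb had an adjusted p-value under 0.05 (DESeq2), at a fold change under 1.5, with a minimum of 10 counts in 3 libraries (0.0464) and with thinned libraries (0.0435). No paired analysis was possible because the labels give no replicate numbers that the groups share (a number shared by the titles of STREP replicates 1 and 2 lies within 1 group). The genes with the fewest counts (Oc90, Otol1 and Ceacam16) had the widest intervals.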
